A study of Mus musculus with 7 samples.

Results

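The liver takes up long-chain fatty acids through membrane proteins and carries them in its cytoplasm on small binding proteins, and 7 genes of these functions were followed here: the fatty acid binding protein genes Fabp1, Fabp2, Fabp4 and Fabp5 and the uptake genes Cd36, Slc27a2 and Slc27a4. They were found by their symbols among the 21706 genes of a liver expression table, and all 7 were in the table. The genes were chosen by symbol with the TPM values of the same oligo-1 and control libraries already known, so their differences between groups are given as descriptions, with errors and without tests. Hepatic mRNA was sequenced from male C57BL/6 mice, an inbred strain. From 8 weeks of age the mice were injected for 2 weeks with either Control Oligo (4 libraries) or tsRNA-Glu-CTC Oligo-1 (3 libraries). Oligo-1 is a synthetic version of a fragment of the glutamate transfer RNA. The study describes every library as 1 mouse and every mouse as fed a low-fat, low-cholesterol diet, and it gave the oligonucleotides into the abdominal cavity. A vehicle group was not analysed here, and the level of tsRNA-Glu-CTC itself was not analysed either. Values are TPM, a share of each library corrected for transcript length.

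Fatty acid binding proteins form small barrels that hold one or a few fatty acids and shuttle them between membranes, mitochondria, peroxisomes, the endoplasmic reticulum and, for some members, the nucleus. Fabp1 is the liver form and one of the most abundant proteins of hepatocytes. Fabp2 is the intestinal form, Fabp4 the form of adipocytes, macrophages and capillary endothelium, and Fabp5 the form first described in skin and also found in macrophages, fat and endothelium. Cd36 encodes a scavenger receptor that also speeds fatty acid entry, and Slc27a2 and Slc27a4 encode fatty acid transport proteins (FATP2 and FATP4) that also join fatty acids to coenzyme A. In the liver, PPAR alpha, a nuclear receptor that binds fatty acids, is a known regulator of Fabp1 and of many genes of fatty acid oxidation.

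Because several of these genes are known PPAR alpha targets, the 250 bases before their RefSeq starts were searched on both strands for a spaced repeat (AGGNCA, 1 base of any kind, then AGGTCA), a form of the element that this receptor binds, for AGGTCA alone, the core of that element, and for the TATAAA box. RefSeq promoters (GRCm38.p6) were matched for 5 of the 7 genes, and Fabp4 and Fabp5 had no entry. The RefSeq starts are not all those of the GENCODE genes whose positions are given further on: they agree for Fabp2 and Slc27a4 and lie downstream of the GENCODE gene start by 52 bases in Fabp1, 617 bases in Slc27a2 and 52.9 kb in Cd36, so the Slc27a2 and Cd36 windows lie inside the GENCODE genes. For Cd36 the nearest start of a GENCODE transcript is 179 bases from the RefSeq start, and for Slc27a2 it is 566 bases away. The 3 windows with a match are shown 5′ to 3′ on the strand of the gene, with matches in capitals, to set the binding protein gene of the liver beside the uptake genes. A match on the opposite strand reads TGACCT for AGGTCA.
Fabp1, chr6:71199629-71199878, plus strand: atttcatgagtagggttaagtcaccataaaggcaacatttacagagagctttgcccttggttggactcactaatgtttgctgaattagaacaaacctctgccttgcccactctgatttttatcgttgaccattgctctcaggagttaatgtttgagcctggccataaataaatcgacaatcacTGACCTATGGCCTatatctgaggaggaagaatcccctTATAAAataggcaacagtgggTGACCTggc
Cd36, chr5:17835897-17836146, minus strand: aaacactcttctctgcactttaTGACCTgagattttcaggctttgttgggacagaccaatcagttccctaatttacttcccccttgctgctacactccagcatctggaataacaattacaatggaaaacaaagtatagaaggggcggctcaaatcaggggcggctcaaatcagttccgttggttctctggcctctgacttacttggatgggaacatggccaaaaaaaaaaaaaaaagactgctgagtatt
Slc27a2, chr2:126552774-126553023, plus strand: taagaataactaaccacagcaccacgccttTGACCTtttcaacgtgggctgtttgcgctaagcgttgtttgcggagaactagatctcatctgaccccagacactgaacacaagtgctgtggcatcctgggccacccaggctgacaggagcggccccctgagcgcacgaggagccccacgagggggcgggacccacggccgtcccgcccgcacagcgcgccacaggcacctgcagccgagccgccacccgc

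The Fabp1 window held the full spaced repeat, from 67 to 55 bases upstream of the RefSeq start. It also held a TATAAA box from 30 bases upstream and a second AGGTCA from 9 bases upstream, and the first AGGTCA lies inside the spaced repeat. The GENCODE gene starts 52 bases before the RefSeq start. The TATAAA box and the second AGGTCA therefore lie inside the GENCODE gene, and the spaced repeat lies just before it. Of 32851 RefSeq promoter windows of the same length, 27 (0.0822%) held the spaced repeat, 4607 (14%) held AGGTCA and 4063 (12.4%) held TATAAA. Cd36 and Slc27a2 each held 1 AGGTCA, from 228 and 220 bases upstream of the RefSeq start. The windows of Fabp2 and Slc27a4 held none of these letters. A match is a description of the letters in the window, not evidence of binding.

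The libraries were not alike within the control group. Over the 10455 tested genes, those that reached 1 TPM in 3 or more libraries, controls 1 and 4 correlated with each other at 0.988 and with the other 5 libraries at 0.928 to 0.947, and the other 5 correlated among themselves at 0.965 to 0.987. In 51.5% of the tested genes both of these controls lay above all other libraries. All 10 macrophage markers did so, and their summed level was 433 and 533 TPM in controls 1 and 4, 60.6 and 51.8 TPM in controls 2 and 3, and 68.4 to 90.1 TPM with oligo-1. Hepatocyte markers (Alb, Apoa1 and 8 others) summed to 74886 to 89017 TPM in every library, as a liver label requires. In limma-trend, the linear model fitted across all tested genes on log2(TPM + 1), 0 genes passed a Benjamini-Hochberg adjusted p of 0.05, with a smallest value of 0.202, and 0 passed without the trend. Without control 3, 19 genes were higher and 10 lower at that threshold. At an unadjusted p below 0.05, 189 genes were higher (1.81%) and 444 lower (4.25%) with oligo-1, and 562 were higher and 335 lower after a TMM-type rescaling of the libraries. The study set a cut-off of a fold above 1.5 at an unadjusted p below 0.01, with p from edgeR. Applied to limma-trend here, it was met by 0.641% of tested genes in the higher and 0.832% in the lower direction. These shares are therefore not the yield of the study's own test. Over the whole set of tested genes the log2 fold change had a median of -0.16, and of 0.03 after that rescaling.

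Expression of Fabp1 was higher with oligo-1, and that of Fabp5 was higher by a larger factor. In these 2 genes all 3 oligo-1 mice lay above all 4 controls, which held for 2.00% of all tested genes. None of the 7 genes was lower in every oligo-1 mouse than in every control, which held for 4.98%. All 7 passed the filter on low values. The contrast was used to choose the genes, so nothing is read from these shares.

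**Figure D1:**
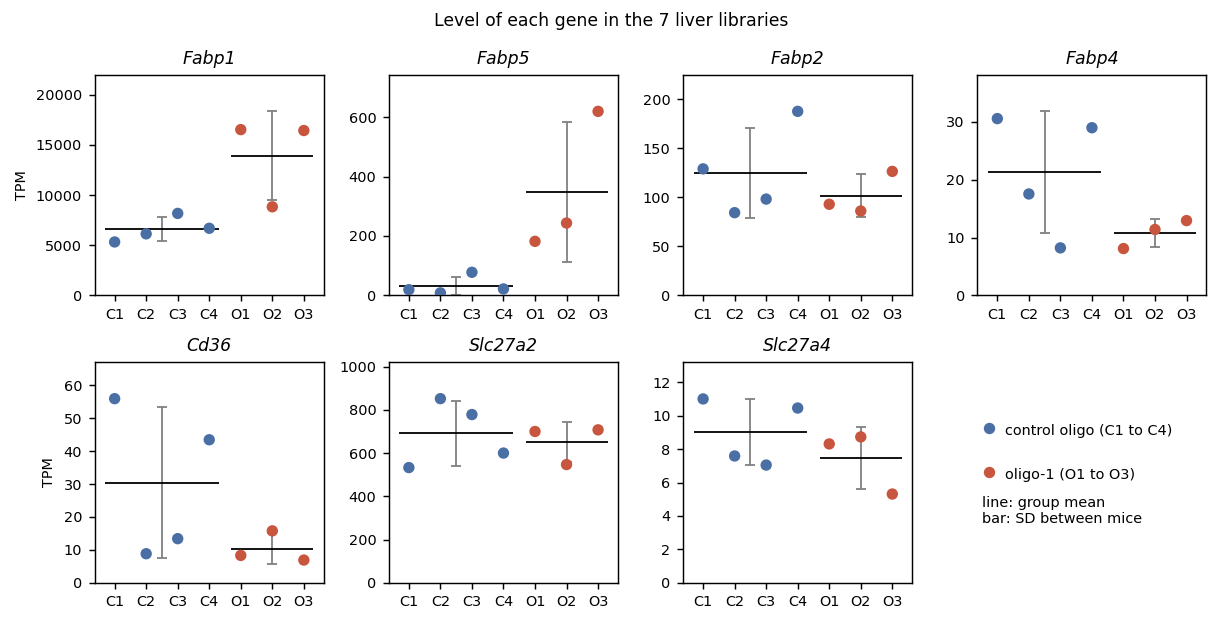
TPM (vertical axes, each from 0) of the 7 genes in each library, with control oligo mice C1 to C4 in blue and oligo-1 mice O1 to O3 in red, lines for group means and bars for the SD between mice. Fabp1 and Fabp5 are the panels where no red point falls to the level of a blue one, while in Cd36 the control mean is set by C1 and C4, at 55.9 and 43.5 TPM.

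Fabp1 (ENSMUSG00000054422.7, mm10 chr6:71199827-71205023, plus strand) encodes the liver fatty acid binding protein. It was at 5329.9, 6137, 8174 and 6693 TPM in controls 1 to 4 and at 16519.9, 8831 and 16428 TPM in oligo-1 mice 1 to 3. The oligo-1 mice were all above the controls, but oligo-1 mouse 2 lay close to control 3 and far from the other treated mice. The means were 6583 ± 1199 TPM for controls (SD, n = 4) and 13926 ± 4413 TPM for oligo-1 (SD, n = 3), a ratio of 2.12, and the fitted log2 fold change was 1.04 (SE 0.24). Counting genes from the most expressed, Fabp1 stood at positions 18 to 27 in the control libraries and at positions 7 to 15 with oligo-1. Without controls 1 and 4 its log2 fold change was 0.92 (SE 0.28), and without oligo-1 mouse 2 it was 1.34.

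Fabp5 (ENSMUSG00000027533.10, chr3:10012548-10016607, plus strand), the epidermal form, is a minor binding protein in healthy liver. Its levels were 19.3, 8.69, 77.9 and 22.0 TPM in controls 1 to 4 and 182, 244 and 619 TPM in oligo-1 mice 1 to 3. The groups did not overlap, and within each group 1 mouse was well above the rest, control 3 among the controls and mouse 3 among the treated. The means were 32.0 ± 31.2 TPM for controls (SD, n = 4) and 348 ± 237 TPM for oligo-1 (SD, n = 3), a ratio of 10.9. The log2 fold change was 3.63 (SE 0.65), at percentile 99.9 of the absolute changes of all tested genes. It was 3.45 (SE 0.79) without controls 1 and 4, 4.20 without control 3 and 3.11 without oligo-1 mouse 3. Fabp5 moved from positions 1006 to 4236 in the control libraries to positions 167 to 507 with oligo-1.

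Cells other than hepatocytes that use Fabp5 include macrophages, adipocytes, keratinocytes and endothelium, so their markers were set beside it. The macrophage sum was lowest, at 51.8 TPM, in control 3, where Fabp5 was the highest of the controls. Endothelial markers summed to 87.9 to 141 TPM in the control mice and to 106 to 117 TPM in the treated mice, so the groups overlapped. Of 8 adipocyte markers 2 were tested, Car3, which hepatocytes also express at high levels, and Adrb3, while Lep was at 0 in every library and Adipoq and Plin1 reached at most 0.190 and 0.146 TPM. Of 8 keratinocyte markers 2 were tested, Lor and Krt10, and the list summed to 1.10 to 8.39 TPM in the control mice and to 2.48 to 4.48 TPM in the treated mice, with Krt14 at 0 in every library. The adipocyte list, nearly all of it Car3, summed to 522 to 1049.9 TPM in the control mice and to 848 to 1004 TPM in the treated mice, which overlapped, while Adrb3 alone was above every control in each oligo-1 mouse. The part of these cells in the Fabp5 values was not tested.

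Fabp2 (ENSMUSG00000023057.5, chr3:122895072-122899506, plus strand), the intestinal form, was at 129, 84.4, 98.2 and 188 TPM in controls 1 to 4 and at 92.9, 86.1 and 126 TPM in oligo-1 mice 1 to 3. All oligo-1 values fell inside the range of the controls. The means were 125 ± 45.9 and 102 ± 21.6 TPM (SD, n = 4 and 3), and the log2 fold change of -0.24 (SE 0.28) turned to 0.14 (SE 0.20) without controls 1 and 4. The 7 enterocyte markers summed to 39.8 to 61.8 TPM in the control mice and to 42.4 to 49.0 TPM in the treated mice, nearly all of it Anpep, with Alpi and Sis at 0 in every library and Treh the only other marker tested.

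Fabp4 (ENSMUSG00000062515.3, chr3:10204088-10208576, minus strand), the adipocyte and macrophage form, was at 30.5, 17.5, 8.22 and 29.0 TPM in controls 1 to 4. In oligo-1 mice 1 to 3 it was at 8.10, 11.4 and 12.9 TPM. Controls 1 and 4 were the highest of the 7 libraries, and control 3 lay among the treated mice. The log2 fold change was -0.79 (SE 0.41) from means of 21.3 ± 10.5 and 10.8 ± 2.47 TPM (SD, n = 4 and 3), and it was -0.17 (SE 0.32) without controls 1 and 4.

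In all 7 libraries Fabp1 accounted for most of the binding protein mRNA. The 4 Fabp genes together took 0.642%, 0.718%, 0.947% and 0.804% of the listed TPM in controls 1 to 4 and 1.91%, 1.06% and 1.99% with oligo-1. Every treated mouse was therefore above every control, and oligo-1 mouse 2 was again the nearest to them. Fabp1 made up 95.6% to 98.3% of this sum across the libraries. The share of Fabp5 was 0.350%, 0.139%, 0.932% and 0.317% in controls 1 to 4 and 1.08%, 2.66% and 3.60% with oligo-1. For each Fabp5 transcript there were 276, 706, 105 and 305 Fabp1 transcripts in the controls and 90.7, 36.3 and 26.5 in the treated mice, so oligo-1 mouse 1 and control 3 lay close to each other in this ratio.

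**Figure D2:**
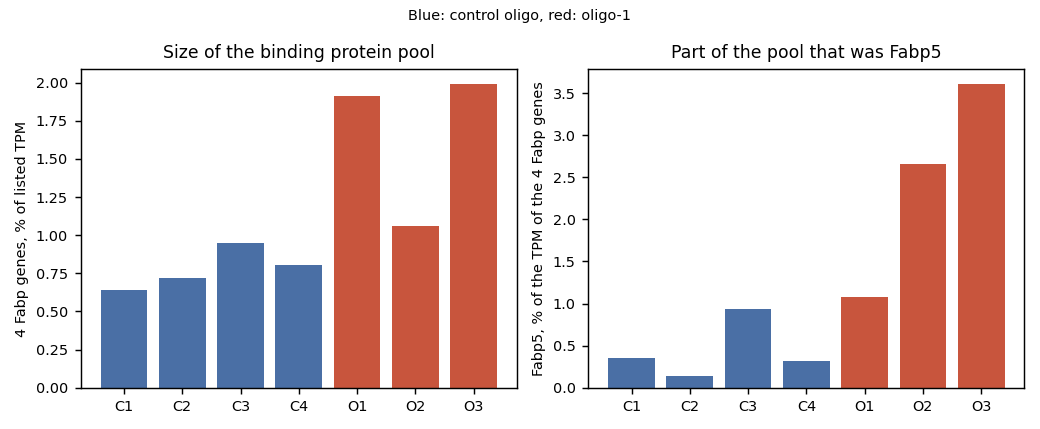
Left, summed TPM of the 4 Fabp genes as a percent of each library's listed TPM. Right, Fabp5 as a percent of that sum. Bars are single libraries, control oligo in blue and oligo-1 in red, and both axes start at 0. The sum runs from 0.642% to 0.947% in controls and from 1.06% to 1.99% with oligo-1, and the Fabp5 part reaches 3.60% in O3.

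Cd36 (ENSMUSG00000002944.15, chr5:17781690-17888801, minus strand), the fatty acid translocase and scavenger receptor, was at 55.9, 8.82, 13.4 and 43.5 TPM in controls 1 to 4. In oligo-1 mice 1 to 3 it was at 8.31, 15.8 and 6.90 TPM. Controls 1 and 4 stood far above, while controls 2 and 3 fell inside the range of the treated mice. The means were 30.4 ± 22.9 and 10.3 ± 4.77 TPM (SD, n = 4 and 3), and the log2 fold change was -1.19 (SE 0.59). Without controls 1 and 4 it was -0.15 (SE 0.33): the mean of controls 2 and 3 was 11.1 TPM, and that of the oligo-1 mice was 0.929 times as high.

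Macrophages and endothelium are known to carry Cd36 or Fabp4 mRNA, and in whole tissue fewer cells of a type and less RNA per cell cannot be told apart. The 2 libraries with high Cd36 and Fabp4 were those with high macrophage markers, led by Lyz2 at 144 and 166 TPM in controls 1 and 4 and 12.9 to 25.6 TPM elsewhere, and by Cd5l at 122 and 144 against 13.6 to 22.7 TPM. Stellate and fibroblast markers, led by Dcn and Colec11, summed to 434 and 403 TPM in controls 1 and 4, to 122 and 114 TPM in controls 2 and 3 and to 111 to 130 TPM with oligo-1, and 9 of 9 tested were highest in controls 1 and 4. Endothelial markers, led by Clec4g and Eng, differed less, with sums between 87.9 and 141 TPM among controls and between 106 and 117 TPM among treated mice, and 4 of 10 were highest in those controls. Their part in the Cd36 and Fabp4 values was not tested.

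**Figure D3:**
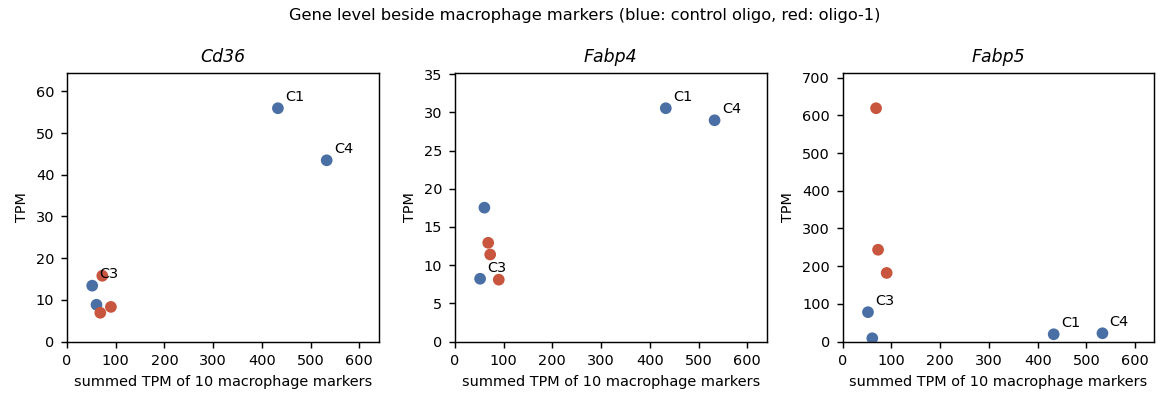
Level of Cd36, Fabp4 and Fabp5 (vertical axes, TPM) against the summed TPM of 10 macrophage markers (horizontal axes), 1 point per library, control oligo in blue and oligo-1 in red. C1 and C4 stand alone at sums of 433 and 533 TPM with the highest Cd36 and Fabp4, while the oligo-1 mice reach 182 to 619 TPM of Fabp5 at sums of 68.4 to 90.1 TPM.

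Slc27a2 (ENSMUSG00000027359.16, chr2:126552407-126588243, plus strand), whose product FATP2 is the main transport protein of hepatocytes together with FATP5, was at 533, 852, 779 and 600.3 TPM in controls 1 to 4. In oligo-1 mice 1 to 3 it was at 700.1, 547 and 708 TPM, all inside the range of the controls. The means were 691 ± 149 and 652 ± 90.7 TPM (SD, n = 4 and 3), and the log2 fold change of -0.07 (SE 0.20) became 0.15 after TMM-type rescaling and -0.33 without controls 1 and 4. Slc27a2 was the uptake gene at which controls 1 and 4 were the lowest controls, opposite to Cd36.

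Slc27a4 (ENSMUSG00000059316.2, chr2:29802634-29817522, plus strand), the FATP4 gene, was the least expressed of the 7. It was at 11.0, 7.59, 7.05 and 10.5 TPM in controls 1 to 4 and at 8.31, 8.73 and 5.31 TPM in oligo-1 mice 1 to 3. The groups overlapped, and controls 1 and 4 were again the highest. The means were 9.02 ± 2.00 and 7.45 ± 1.86 TPM (SD, n = 4 and 3), and the log2 fold change was -0.25 (SE 0.25), -0.06 after TMM-type rescaling.

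The split among controls can be set beside each gene. Cd36, Fabp2, Fabp4 and Slc27a4, 4 of the 7 genes, were highest in controls 1 and 4, beside 51.5% of all tested genes. Against the mean of controls 2 and 3 alone, the oligo-1 mean was 1.12 times for Fabp2, 0.839 times for Fabp4 and 1.02 times for Slc27a4. It was 1.95 times for Fabp1, 8.04 times for Fabp5 and 0.799 times for Slc27a2.

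**Figure D4:**
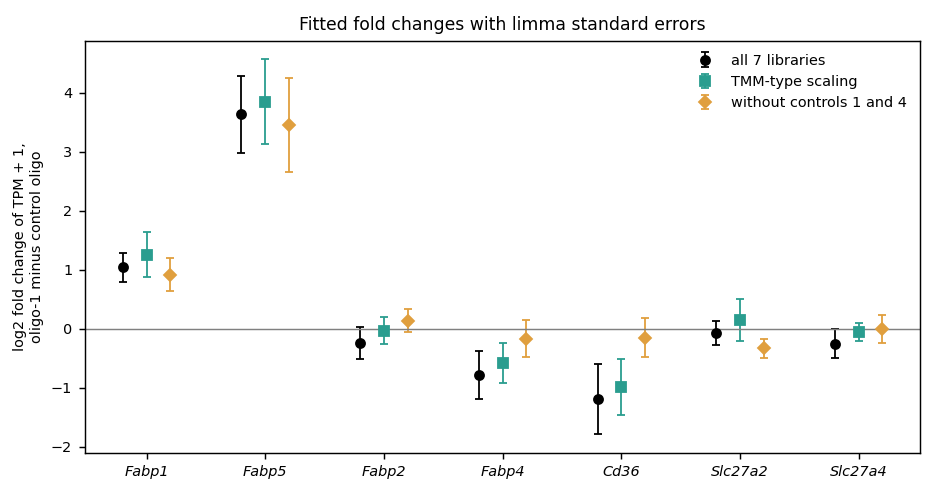
Fitted log2 fold change of TPM + 1 (oligo-1 minus control oligo, vertical axis) of each gene, with limma standard errors as bars, for all 7 libraries (black), after TMM-type scaling (green) and without controls 1 and 4 (orange). Fabp5 stays between 3.45 and 3.84 and Fabp1 between 0.92 and 1.26, while Cd36 goes from -1.19 to -0.15.

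In the control mean the order of levels was Fabp1, Slc27a2, Fabp2, Fabp5, Cd36, Fabp4 and Slc27a4. The ranges of controls did not overlap between Fabp1 and Slc27a2, between Slc27a2 and Fabp2, or between Fabp2 and Fabp5. They overlapped for the neighbours Fabp5 and Cd36, Cd36 and Fabp4, and Fabp4 and Slc27a4, so this end of the order is not fixed by these mice. A complete exchange of places was seen with oligo-1: Fabp2 was above Fabp5 in 4 of 4 controls and in 0 of 3 treated mice.

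Across the 7 libraries the genes fell in with different company. The correlations below are descriptions over 7 points that hold both the split among controls and the difference between groups. On log2(TPM + 1), Fabp1 and Fabp5 correlated at 0.86, Cd36 and Slc27a4 at 0.85, Cd36 and Fabp4 at 0.78, and Fabp1 and Cd36 at -0.71. For Fabp5 the genes of highest correlation were Cyb5r3 (0.988), a reductase of cytochrome b5, Idi1 (0.987), isopentenyl diphosphate isomerase of the mevalonate pathway, and Nsdhl (0.984), a sterol dehydrogenase. Idi1 was at 13.4, 10.4, 25.4 and 13.9 TPM in controls 1 to 4 and at 57.3, 48.2 and 102 TPM with oligo-1, so control 3 was its highest control and mouse 3 its highest treated mouse, as in Fabp5. For Fabp1 they were Hdhd3 (0.943), Cyp51 (0.938), the lanosterol demethylase, and Ndufa6 (0.929), a subunit of respiratory complex I. Cyp51 was at 10.1, 8.92, 19.0 and 10.7 TPM in controls and at 35.9, 28.5 and 50.6 TPM with oligo-1. Cyb5r3, Idi1, Nsdhl, Cyp51 and Ndufa6 were each above every control in all oligo-1 mice, and Hdhd3 was not. Their correlations with Fabp5 or Fabp1 therefore hold the same contrast that was used to choose the 7 genes.

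The other genes had many close companions or few. Above a correlation of 0.9 there were 1604 genes for Cd36, led by Zbtb41 (0.996), Poldip3 (0.993) and Bbs5 (0.993), 559 for Slc27a4, led by Arfgap2 (0.995), Clcn4 (0.990) and Vti1b (0.988), and 298 for Fabp4, led by Parp6 (0.994), Ppp4r4 (0.992) and Utp15 (0.988). Each of these 3 genes was high in controls 1 and 4. Fabp2 had 140, led by Id1 (0.982), Rpl22l1 (0.977) and Patj (0.972), and Fabp5 had 44. Fabp1 had 11, and Slc27a2 had 8, led by Cyp4a32 (0.982), a fatty acid hydroxylase gene, G0s2 (0.967), an inhibitor of adipose triglyceride lipase, and Sra1 (0.937).

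Fabp5 and Fabp4 are near neighbours in the genome. The 2 genes lie 187 kb apart on mouse chromosome 3 in a cluster with Fabp9 and Pmp2, which were at 0 in every library, and Fabp12, which reached at most 0.942 TPM. Their log2 fold changes were 3.63 and -0.79. Within 250 kb, Fabp4 was the only tested neighbour of Fabp5, and the other 4 tested neighbours of Fabp4 had values from -0.42 (Slc10a5) to 0.20 (Zfand1). The 3 tested neighbours of Fabp1 were at -0.16 (Krcc1) to 0.46 (Thnsl2), beside 1.04 for Fabp1 itself. Shared sequence was looked for as well: of the 31-base words of their coding transcripts, 523 for Fabp1, 957 for Fabp5 and 3645 for Cd36, 0 occurred in a coding transcript of another gene, and the same was true of the other 4.

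Other genes of the pathway were followed in 6 lists. Of all 10455 tested genes 0 passed the adjusted p of limma-trend in either direction, so the lists could hold none. Of 12 other intracellular lipid binding proteins, 11 were in the table, 6 were at 0 in every library (Fabp6, Fabp9, Pmp2, Crabp1, Crabp2 and Rbp2) and 2 were tested. Fabp7, the brain form, was at 17.3, 1.23, 1.93 and 16.2 TPM in controls 1 to 4 and at 2.95, 2.09 and 4.50 TPM with oligo-1, and the fitted log2 difference was -0.73 (SE 0.74). It showed the split among controls. The heart form Fabp3 reached 1.06 TPM in 1 control and at most 0.153 TPM in the treated mice. The groups overlapped in Fabp7, unlike in Fabp1 and Fabp5.

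Of 11 other transport proteins and acyl-CoA synthetases, which trap fatty acids as coenzyme A esters, 6 were tested. At an unadjusted p of 0.05, 0 were higher and 0 lower, beside 1.81% and 4.25% of all tested genes. The median log2 fold change of the 6 was 0.10, beside -0.16 for all tested genes, with 5 above 0 and 1 below. Of all tested genes 26.4% were above 0. Without control 4 the list median was -0.03, beside -0.09 for all tested genes. Without controls 1 and 4 it was 0.06, beside 0.05. Acsl4, a synthetase with a preference for arachidonic acid, was at -0.75 (SE 0.44), Acsl3 at 0.44 (SE 0.35) and Acsl5 at 0.36 (SE 0.31). Slc27a5, whose product FATP5 also acts on bile acids, was at 351, 457, 541 and 276 TPM in controls 1 to 4 and at 423, 517 and 310 TPM with oligo-1, so the groups overlapped there as in Slc27a2. Slc27a5 is named outside the rule for named genes, after its values were seen.

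In 12 genes of lipoprotein lipolysis, caveolae and other carriers, all tested, the median was -0.15. At an unadjusted p of 0.05, 1 gene was higher and 0 lower, beside 1.81% and 4.25% of all tested genes. Lpl, the lipase that frees fatty acids from circulating triglyceride, was at 80.3, 2.26, 3.27 and 67.7 TPM in controls 1 to 4 and at 4.14, 2.58 and 5.06 TPM with oligo-1, and the fitted log2 difference was -1.79 (SE 1.10). The high values of Lpl were those of controls 1 and 4, where the macrophage sum was also high. Its relation to these markers was not tested. Dbi, the acyl-CoA binding protein that carries the products of the synthetases, was at 1336, 841, 1213 and 1731 TPM in controls and at 1831, 1681 and 2234 TPM with oligo-1, and the fitted log2 difference was 0.62 (SE 0.23). Control 4 was above oligo-1 mouse 2 in Dbi, so the groups overlapped. Cavin1, a coat protein of caveolae, was at -0.48 (SE 0.38).

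The 20 PPAR alpha targets, most of them enzymes of fatty acid oxidation, had a median of -0.28, beside -0.16 for all tested genes. Of the 20, 16 were below 0 and 4 above, beside 73.6% and 26.4% of all tested genes. At an unadjusted p of 0.05, 2 were lower and 0 higher, beside 4.25% and 1.81% of all tested genes. After TMM-type rescaling the list median was -0.06, beside 0.03 for all tested genes. Without controls 1 and 4 it was -0.17, beside 0.05. Pdk4, the kinase that inhibits pyruvate dehydrogenase during fasting, was at 9.21, 10.2, 1.31 and 9.78 TPM in controls 1 to 4 and at 1.30, 1.14 and 1.63 TPM with oligo-1, and the fitted log2 difference was -1.64 (SE 0.52). Control 3 lay inside the range of the treated mice. Acot2, a mitochondrial thioesterase, was at 24.8, 5.82, 6.91 and 22.4 TPM in controls 1 to 4 but at 4.98, 3.43 and 4.07 TPM with oligo-1 (log2 fold change -1.39, SE 0.48), without overlap between the groups and with controls 1 and 4 far above the rest. No overlap, lower with oligo-1, was seen in 4.98% of all tested genes. Cyp4a14, a fatty acid hydroxylase, was at -0.96 (SE 0.67). Fabp1, also a known target of this receptor but not counted in the list, was at 1.04.

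Among 16 receptors and coactivators, the median was -0.07, and 2 were higher and 1 lower at an unadjusted p of 0.05. Of all tested genes 1.81% were higher and 4.25% lower at that threshold. Nr1d1, the clock repressor REV-ERB alpha, was at 29.2, 10.8, 43.1 and 25.6 TPM in controls 1 to 4 and at 47.8, 59.8 and 46.5 TPM with oligo-1, and the fitted log2 difference was 1.03 (SE 0.38). Control 3 was the highest control in Nr1d1, as it was in Fabp1 and Fabp5. The coactivator genes Ppargc1b and Ppargc1a were at 0.57 (SE 0.26) and -0.54 (SE 0.24), each without overlap between the groups. No overlap was seen in 2.00% of all tested genes in the higher and 4.98% in the lower direction. Ppara itself was at -0.09 (SE 0.26).

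The 12 genes of lipid droplets and steatosis gave 10 tested genes with a median of -0.21. At an unadjusted p of 0.05, 0 were higher and 1 lower, beside 1.81% and 4.25% of all tested genes. Cidec, which enlarges lipid droplets, was at 32.0, 11.8, 8.82 and 45.9 TPM in controls 1 to 4 and at 9.29, 4.42 and 12.5 TPM with oligo-1, and the fitted log2 difference was -1.21 (SE 0.55). Its values in controls 2 and 3 overlapped those of the treated mice, as in Cd36. Plin4, a droplet coat protein, was at -0.68 (SE 0.27), and Pnpla2, adipose triglyceride lipase, at -0.42 (SE 0.19).

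**Figure D5:**
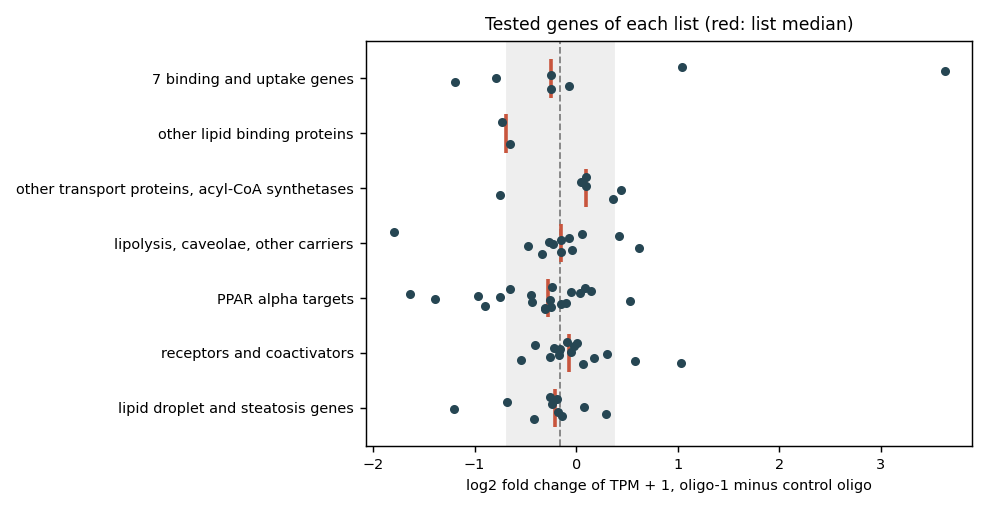
Fitted log2 fold change (horizontal axis, oligo-1 minus control oligo) of each tested gene, by list, with list medians in red, the median of all tested genes (-0.16) as a dashed line and the range of the middle 90% of tested genes (-0.68 to 0.37) shaded. Fabp5, at 3.63, and Fabp1, at 1.04, lie outside this range on the right, and Cd36 and Fabp4 outside it on the left.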

How the data were processed

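Hepatic mRNA of 4 control oligo and 3 oligo-1 mice was analysed. The authors isolated RNA with TRIzol, prepared libraries by Illumina's standard procedure, quantified protein-coding genes with kallisto (version not given here in the sources used) and used edgeR for changed genes, and the submitters' processing notes name mm10. The deposited values are TPM, which the authors' tool scales to a fixed total per library. The listed genes held 85.8% to 88.3% of that total. Sequencing depth cannot be read from TPM, is unknown, and no interval that needs it was computed.

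Values were transformed to log2(TPM + 1), which understates changes of low genes, and 10455 of 21706 genes, those that reached 1 TPM in 3 or more libraries, were fitted with limma-trend (limma 3.58.1, R 4.3.3), oligo-1 against control oligo, 2-sided, without covariates, with Benjamini-Hochberg adjustment over all genes. The procedure was tested on simulated data. Groups and replicate numbers come from the library names. Gene positions are from GENCODE M21, in which 97.2% of symbols were found.

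The 7 genes and all lists were chosen with earlier results of these data known. Named beside them are, per list, the 3 tested genes of largest absolute log2 fold change, the 3 genes most correlated with each of the 7, and the top 2 markers per cell type by mean TPM. A gene that this rule names is not reported here. Alternatives were a pseudocount of 0.1, no filter or a minimum of 5 TPM, TMM-type factors (an unweighted version of the trimmed mean of log ratios, computed on TPM), leaving out each library, leaving out controls 1 and 4, a replicate block and limma without a trend.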

Additional observations from a re-analysis of the deposited data

Results flagged for a closer look

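Of 78 genes searched, those whose values are printed here or that the rule for named genes picks, 75 varied among the controls. In 6 of them 1 control library stood apart from the other 3, since its gap to the nearest control, as a part of the whole range of the controls, was above Dixon's critical value. In Nsdhl, control 3 was at 19.0 TPM, and the gap was 0.908 of the range. In Cyb5r3, control 3 was at 267 TPM, with a gap of 0.846. Both genes were picked as among those most correlated with Fabp5 over these same libraries. Fabp5 was also highest in control 3 of the controls, so this shared high control is not a separate observation. In Pdk4, control 3 was low, at 1.31 TPM, with a gap of 0.894. In Amy2a5, a pancreatic amylase gene that did not pass the filter, control 2 was at 0.0657 TPM, with a gap of 0.906. In Fabp3 and Cfd, which did not pass the filter either, control 4 was at 1.06 TPM, with a gap of 0.907, and control 3 at 0.572 TPM, with the other controls at 0 and a gap of 1. Chance gives such a gap in about 1 in 20 groups.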

How the results depend on the processing

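Of 98 values of the 7 genes under 14 alternatives, 97 moved by less than the gene's spread between mice within groups. This spread, taken from all 7 libraries, holds the split among controls. The exception was Cd36, at -0.15 without controls 1 and 4. Without these controls Fabp4 went from -0.79 to -0.17 and Fabp2 from -0.24 to 0.14, both less than their spread. Leaving out 1 library at a time gave 0.89 to 1.34 for Fabp1, 3.11 to 4.20 for Fabp5, -0.41 to -0.03 for Fabp2, -1.16 to -0.57 for Fabp4, -1.63 to -0.78 for Cd36, -0.18 to 0.05 for Slc27a2 and -0.37 to -0.05 for Slc27a4. Changes of sign occurred in 4 values, 1 of Fabp2 and 3 of Slc27a2. Fabp1 and Fabp5 were the 2 genes without overlap, higher with oligo-1, in all 9 alternatives where this was counted, as were 2.51% to 17.8% of all tested genes, the most without controls 1 and 4. Without control 3 Fabp4, without oligo-1 mouse 2 Cd36, and without controls 1 and 4 Slc27a2 had all treated mice below all controls, beside 9.38%, 10.8% and 7.81% of tested genes in the same libraries. Counts over all genes moved more. Genes past the adjusted p numbered 0 to 19 higher and 0 to 10 lower on leaving out 1 library (19 and 10 without control 3), and 1 higher without controls 1 and 4. At an unadjusted p below 0.05, leaving out 1 library gave 106 to 273 higher and 185 to 1505 lower (1505 without control 2), no filter gave 327 higher, a minimum of 5 TPM 290 lower, TMM-type scaling 562 higher, and leaving out controls 1 and 4 690 higher and 277 lower. The study's rule (p below 0.01, fold above 1.5), applied here to limma-trend, gave 67 higher and 87 lower. On leaving out 1 library the counts were 32 to 114 higher and 42 to 295 lower. They were 123 higher with TMM-type scaling and 212 higher without controls 1 and 4. The cause was not tested. The library names number the mice without saying that equal numbers are pairs. Deviations of same-numbered mice correlated at 0.08, -0.02 and -0.11, which cannot settle whether they were paired. With the replicate block, which leaves out control 4, Fabp1 was at 1.05 and Fabp5 at 3.60, 53 genes were higher and 33 lower at the adjusted p, and 125 were higher under the study's rule. Groups of 4 and 3 mice and unknown depth limit what low genes such as Slc27a4 can show.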

Other observations

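Among the 39 tested markers of other cell types, the groups did not overlap in 3, of which 1 was higher and 2 lower with oligo-1, a share near that of all tested genes (2.00% higher and 4.98% lower). Adrb3, a beta adrenergic receptor known from adipocytes, was at 5.08, 3.59, 3.87 and 5.11 TPM in controls 1 to 4 and at 6.75, 6.83 and 6.84 TPM with oligo-1, and the fitted log2 difference was 0.54 (SE 0.20, n = 4 and 3). Car3, the other adipocyte marker tested, which the liver also expresses, had means of 742 and 935 TPM, and its fitted log2 difference was 0.40 (SE 0.26), with overlap between the groups. Lep was at 0 in every library, and Adipoq, Plin1, Retn and Cfd reached at most 0.190, 0.146, 0.545 and 0.623 TPM. The part of adipocytes in these values was not tested. Treh, the trehalase of the intestinal and renal brush border, was at 2.94, 1.24, 0.982 and 3.03 TPM in controls and at 0.521, 0.778 and 0.240 TPM with oligo-1, and the fitted log2 difference was -0.95 (SE 0.31). Treh reached 1 TPM only in controls 1, 2 and 4, so it passed the filter through the controls alone. Nothing is therefore read from its place among the lower markers. Reln, a stellate cell marker named after its values were seen, lay between 2.94 and 8.49 TPM among controls and between 2.53 and 2.78 TPM among treated mice, and its fitted log2 difference was -0.70 (SE 0.33). Controls 1 and 4 were highest in Reln, as in the other stellate markers tested. None of the tested genes, Adrb3, Treh and Reln included, passed the adjusted p of limma-trend. Cholangiocyte markers, led by Spp1 and Sox9, had sums between 22.7 and 55.6 TPM among controls and between 24.0 and 55.7 TPM among treated mice. Of 8 pancreatic markers, Prss2, Pnlip, Ctrb1 and Ins2 were at 0 in every library, Amy2a5 was close to 0, and Cela1, which the liver also expresses, was the only one tested, at 0.37 (SE 0.22).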
